A study of Mus musculus with 6 samples.

Results

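BC44 and HC11 are established mouse mammary epithelial cell lines, and the comparison described here is between their poly(A) RNA profiles. Of the 6 RNA-seq libraries of the study, 4 belong to it, 2 of BC44 and 2 of HC11, and the other 2 are of C57MG, another mouse mammary line. The members were the libraries labelled BC44 and HC11, and genes were compared where at least 2 of these 4 libraries reached 1 RPKM (reads divided by gene length in kilobases and by the depth of the library), which 10200 of the 11417 genes in the table did. The cells of every line were untreated and grew on plastic, in 10 cm dishes, for 2 days before RNA was taken. The BC44 medium was RPMI with serum (10%) and insulin (5 µg/ml). The HC11 medium was the same with epidermal growth factor (EGF) added at 10 ng/ml, so a difference between the lines cannot be told apart from a difference between media with and without EGF. The medium of C57MG was DMEM, again with serum (10%), and with insulin at 10 µg/ml. The labels name no introduced gene or allele in any line. The labels do not say that the libraries of a line came from separate cultures, so p-values measure only the spread between these libraries.

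Both lines are known as derivatives of the COMMA-D mammary epithelial line. The mammary epithelium has an inner luminal layer, marked by keratins 8 and 18, and an outer basal layer, marked by keratins 5 and 14. HC11 is widely used as a model of milk protein induction by lactogenic hormones and is customarily grown with EGF. BC44 is known as a line with basal features that also responds to EGF. EGF signals through the ErbB receptors and the MAPK cascade, which switches on immediate early genes and its own inhibitors.

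The libraries matched their labels as epithelial cells. E-cadherin (Cdh1) was at 137 and 119.5 RPKM in BC44 against 107 and 110.0 in HC11, and its log2 difference of 0.24 (SE 0.29, adjusted p = 0.537) did not pass. Of the 21 epithelial markers tested, 4 were at least 2-fold higher in BC44 and 4 in HC11. Their summed level was 6061 and 5747 RPKM in BC44 and 3629 and 2707 RPKM in HC11, against 144.4 and 65.6 RPKM in C57MG. Most of the BC44 and HC11 sums came from the basal keratins Krt14 and Krt5. Krt14 was at 2716 and 2736 RPKM in BC44 and 1409 and 1073 in HC11, and Krt5 at 2012 and 1828 and at 1000 and 534. The fibroblast markers summed to 573.6 and 620.1 RPKM in BC44 and 673.3 and 672.7 RPKM in HC11, against 8061 and 7799 RPKM in C57MG. Among endothelial and leukocyte markers 3 of 10 and 2 of 12 were in the table, and 1 of each was tested. Depth was estimated from the steps of low values as 14330000 and 17330000 reads for BC44 and 18110000 and 14020000 reads for HC11. At these depths 3 reads of a 2 kb gene corresponded to 0.083 to 0.107 RPKM, a floor that covers counting error only. Low levels of genes of another line were seen: 72 genes high in C57MG stood at a median of 2.02% of their C57MG level in BC44 replicate 2 and 73 such genes at 0.666% in BC44 replicate 1, and 18 genes high in BC44 stood at 2.38% and 1.21% in HC11 replicates 1 and 2. Where a gene stood in one line at a few percent of its level in another, the part of such signal was not tested gene by gene. A median share of C57MG signal was subtracted from each BC44 and HC11 library only as a setting.

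A difference is given throughout as the mean log2(RPKM + 1) of BC44 minus that of HC11, so that negative values are higher in HC11. This scale understates the change of genes under a few RPKM. Of the 10200 genes, 5019 (49.2%) had a limma adjusted p under 0.05, 2603 of them higher in BC44 (25.5% of those tested) and 2416 higher in HC11 (23.7%). The 4 libraries separated without overlap for 7476 genes (73.3%). A difference of at least 1, called at least 2-fold here, was passed by 1339 genes (13.1%), 578 (5.67%) in the direction of BC44 and 761 (7.46%) in that of HC11. The median absolute difference was 0.303, against a median SD between replicates of 0.083 in BC44 and 0.098 in HC11. These shares are the background for every count of list members below. List counts are of tested members, and some listed genes were absent from the table or not tested. A gene that reached 1 RPKM in both libraries of 1 line was tested even where the other line had no signal.

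The genes that run the cell's basic machinery were close to equal. Among 78 cytosolic ribosomal proteins 1 was at least 2-fold apart, among 76 mitochondrial ribosomal proteins 2, among 84 subunits of oxidative phosphorylation 2, among 45 proteasome subunits 2, among 49 DNA replication and S-phase genes 2, and among 58 genes of mitosis 1. The unfolded protein response and its chaperones gave 1 of 29, chromatin and DNA methylation regulators 1 of 49, and the numbered Zfp zinc finger genes 9 of 240. Small shifts were common all the same: 68 of the 240 Zfp genes passed as higher in BC44 and 26 as higher in HC11, and 19 and 3 of the 49 chromatin regulators, with list medians of 0.13 and 0.15. Without BC44 replicate 1 the first 2 of these counts were 42 and 16, and 12 chromatin regulators passed as higher in BC44. The chromatin regulator past 2-fold was Hmga2, an architectural DNA-binding protein of embryonic and transformed cells, at 13.3 and 20.7 RPKM in HC11 against 0.616 and 0.855 in BC44. Its log2 difference was -3.35 (SE 0.35, adjusted p = 0.000206). The plot of list shares sets these lists beside others with larger shares.

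**Figure D1:**
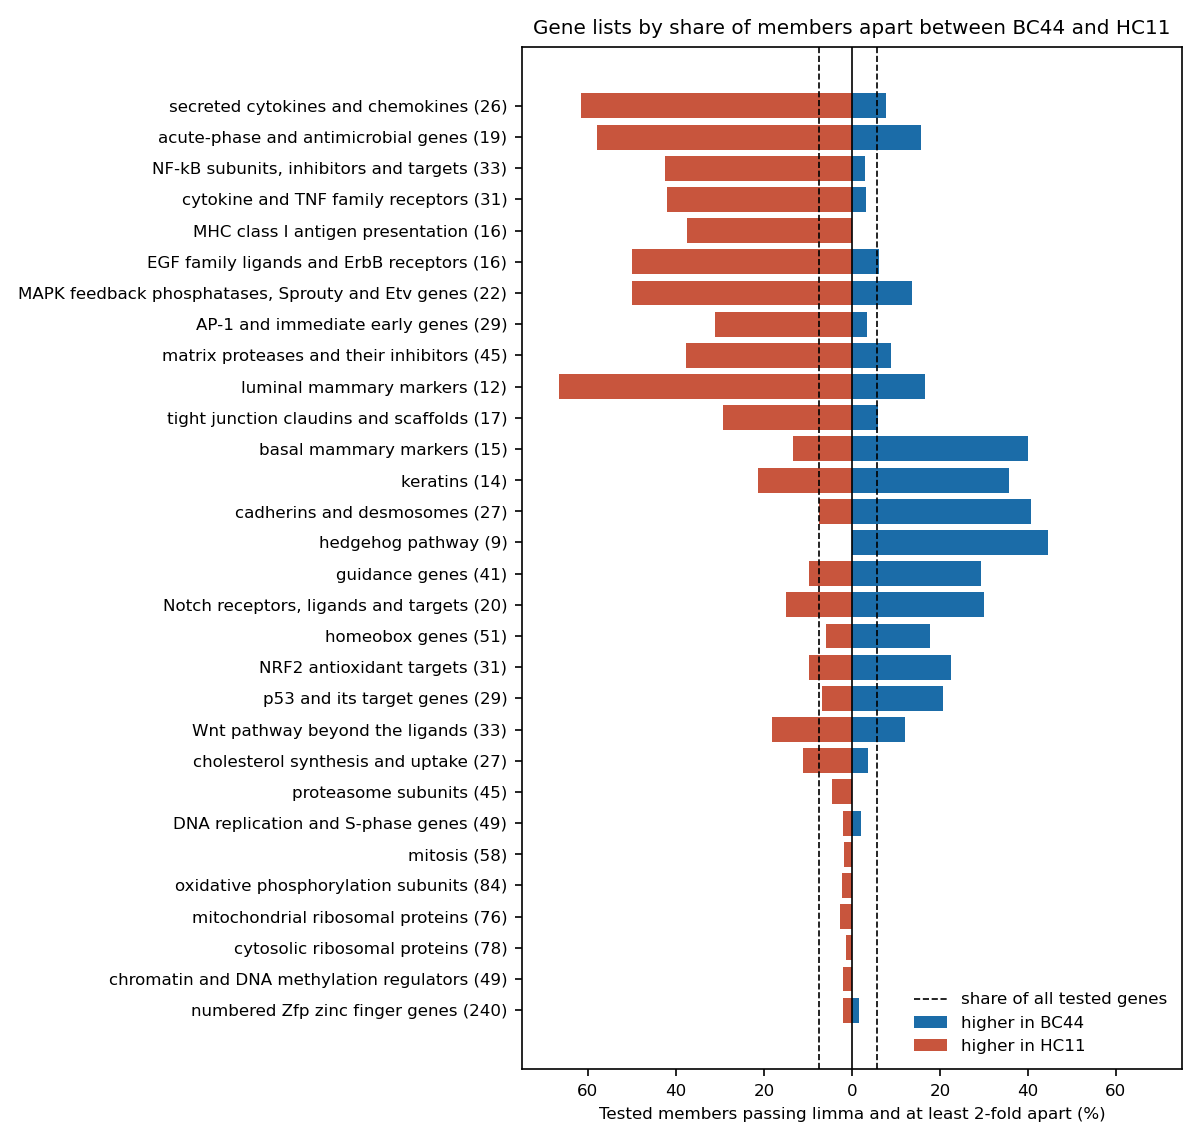
Share of the tested members of 30 gene lists (number tested in brackets) that passed limma at an adjusted p under 0.05 with a difference of at least 1 on the log2(RPKM + 1) scale, to the right for genes higher in BC44 and to the left for genes higher in HC11. Dashed lines mark the shares among all tested genes, 5.67% and 7.46%; inflammatory, EGF and luminal lists extend to the left, adhesion, hedgehog and guidance lists to the right, and ribosomal, mitotic and replication lists stay near 0.

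Secreted cytokines and chemokines, the messengers that recruit and activate leukocytes, were mostly higher in HC11. Of 50 listed members 33 were in the table and 26 were tested. Of these 26 tested members 16 were at least 2-fold higher in HC11 and 2 in BC44. The median log2 difference was -1.80, against 0.02 over all genes. Interleukin-1 alpha (Il1a), an alarm cytokine of epithelia, was at 386 and 1058 RPKM in HC11 against 0 and 0.29 in BC44. Granulocyte colony-stimulating factor (Csf3) was at 231 and 595 RPKM in HC11 against 0 and 0.162 in BC44. Both genes were at or near the floor in the BC44 libraries and far above it in the HC11 libraries. Their log2 differences were -9.14 (SE 0.40, adjusted p = 3.09e-06) and -8.43 (SE 0.37, adjusted p = 3.09e-06). The neutrophil-attracting chemokines that share the receptor CXCR2 were high together. Cxcl1 was at 442 and 964 RPKM in HC11 against 0.933 and 2.105 in BC44. Cxcl5 was at 683 and 1405 RPKM in HC11 against 2.397 and 7.93 in BC44. Cxcl3 was at 33.9 and 99.9 RPKM in HC11 against 0.068 and 0.114 in BC44. Cxcl2 was at 14.3 and 105 RPKM in HC11 against 0.13 and 0.272 in BC44. All 4 chemokines were higher in HC11 replicate 2 than in replicate 1. Interleukin-6, which signals through gp130 and STAT3, was at 58.2 and 90.3 RPKM in HC11 against 0 and 0.105 in BC44. Leukemia inhibitory factor (Lif), another gp130 ligand, was at 55.02 and 99.2 RPKM in HC11 against 2.89 and 4.47 in BC44. Il24 was at 121 and 225 RPKM in HC11 against 0.118 and 0.544 in BC44. Tslp, an epithelial cytokine acting on dendritic and T cells, was at 7.08 and 11.3 RPKM in HC11 against 0 and 0.202 in BC44. Il19 was at 1.75 and 2.46 RPKM in HC11 against 0.063 and 0 in BC44. Il19 and Il24 belong to the interleukin-20 group of cytokines, whose receptors sit mainly on epithelia. The decoy ligand Il1rn, which blocks the interleukin-1 receptor, was also higher in HC11, at 7.001 and 11.3 RPKM in HC11 against 0.405 and 0.375 in BC44. For each of these genes both HC11 libraries lay above both BC44 libraries, a description of genes picked for their differences. The members past 2-fold in the other direction were Il18 and Il15. Il18, an interleukin-1 family cytokine that is stored as a precursor, was at 6.42 and 4.17 RPKM in BC44 against 0.754 and 1.17 in HC11. Il15, a growth factor of natural killer and memory T cells, was at 6.17 and 4.24 RPKM in BC44 against 0.903 and 0.439 in HC11. Their log2 differences were 1.67 (SE 0.22, adjusted p = 0.000607) and 1.89 (SE 0.23, adjusted p = 0.000384).

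The HC11 replicates were not alike in these genes. Of the 16 cytokines at least 2-fold higher in HC11, 15 were higher in replicate 2 than in replicate 1, with a median log2 difference between the replicates of 0.96, where all tested genes had a median of -0.02. The corresponding numbers were 16 of 17 and 0.71 for matrix proteases and their inhibitors, 8 of 8 and 0.80 for the EGF family and 8 of 11 and 0.78 for acute-phase genes. In BC44 12 of the same 16 cytokines were higher in replicate 2, with a median of 0.19. The cytokine count was 18 without HC11 replicate 1 and 15 without HC11 replicate 2, so the count was of similar size without either library, while the levels of single cytokines differed between them. Genes higher in BC44 moved the other way as a set. Of the 578 genes at least 2-fold higher in BC44, 207 were higher in HC11 replicate 2 than in replicate 1, with a median of -0.09. Among the 761 at least 2-fold higher in HC11 it was 469, with a median of 0.10. The surface antigens Ly6a and Ly6d were at 26.8 and 7.92 RPKM and 19.7 and 5.66 RPKM in HC11 replicates 1 and 2. HC11 replicate 1 also held the larger share of signal of genes high in BC44, 2.38% against 1.21%, and the part of that signal in these values was not tested.

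**Figure D2:**
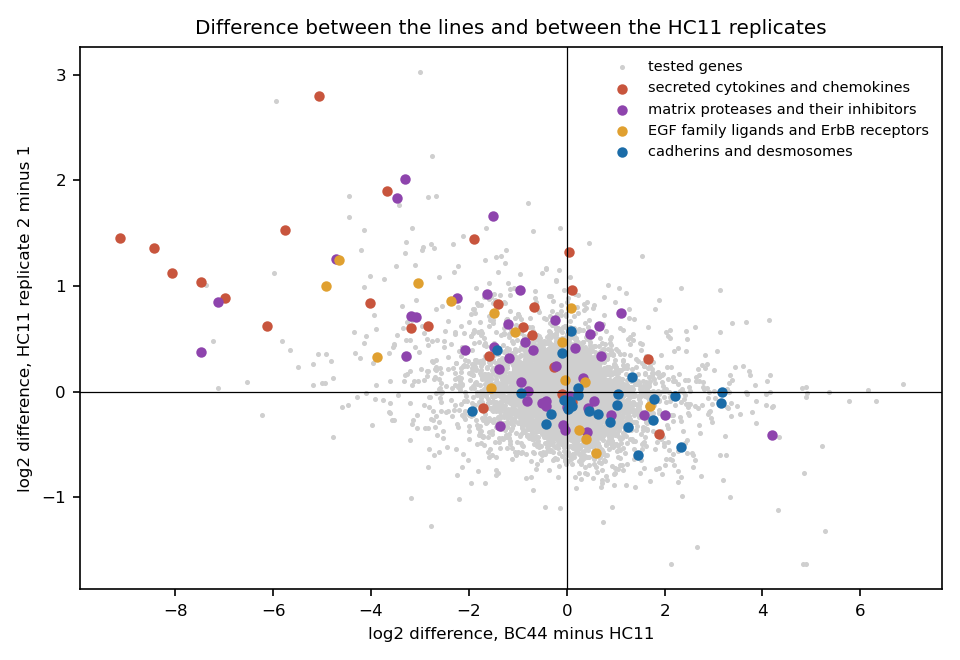
Each point is a tested gene, with the log2 difference between BC44 and HC11 on the horizontal axis and the log2 difference between HC11 replicates 2 and 1 on the vertical axis, both on the log2(RPKM + 1) scale. Cytokines, proteases and EGF family genes that are far to the left (higher in HC11) lie mostly above 0 (higher in HC11 replicate 2). The cadherin and desmosome genes lie closer to the line. Of the 11 at least 2-fold higher in BC44, 1 was higher in HC11 replicate 2, with a median of -0.11.

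NF-kB is a family of transcription factors that is held in the cytoplasm by inhibitor proteins and, once released, induces cytokines together with those inhibitors. Of 33 tested subunits, inhibitors and target genes, 14 were at least 2-fold higher in HC11 and 1 in BC44. Among the subunits Nfkb1 was at 83.9 and 81.7 RPKM in HC11 against 21.996 and 23.05 in BC44. Nfkb2 was at 46.4 and 57.3 RPKM in HC11 against 15.8 and 19.7 in BC44. Relb was at 7.91 and 8.26 RPKM in HC11 against 2.46 and 3.098 in BC44. Their log2 differences were -1.83 (SE 0.07, adjusted p = 2.36e-06), -1.50 (SE 0.14) and -1.27 (SE 0.12). Rela, the main activating subunit, was at 37.4 and 43.8 RPKM in HC11 against 34.9 and 36.3 in BC44 and did not pass, with -0.18 (SE 0.09, adjusted p = 0.15). Without HC11 replicate 1 it passed (adjusted p = 0.0334). The inhibitors were higher too. Nfkbia was at 44.1 and 53.8 RPKM in HC11 against 16.7 and 21.3 in BC44. Nfkbie was at 11.96 and 12.3 RPKM in HC11 against 1.44 and 1.73 in BC44. Bcl3, an atypical nuclear member of the inhibitor family, was at 16.1 and 16.8 RPKM in HC11 against 0.165 and 0.161 in BC44. Bcl3 was near the floor in both BC44 libraries, and its log2 difference was -3.91 (SE 0.11, adjusted p = 7.21e-07). Nfkbiz, a nuclear co-activator of Il6 and Lcn2, was at 27.5 and 34.8 RPKM in HC11 against 5.22 and 4.73 in BC44. Zc3h12a, a ribonuclease that degrades cytokine mRNAs, was at 26.4 and 34.3 RPKM in HC11 against 1.64 and 1.37 in BC44. Both are themselves induced by NF-kB. Tnip1, a dampening protein, was at 31.2 and 37.2 RPKM in HC11 against 8.19 and 6.92 in BC44. Its relative Tnip3 was at 5.34 and 8.77 RPKM in HC11 against 0 and 0.029 in BC44. All of these separated without overlap between the lines, as 73.3% of all tested genes did. Most were picked with their values in view, so this is a description. The exception higher in BC44 was Birc2, a ubiquitin ligase of the TNF receptor complex, at 12.9 and 11.7 RPKM in BC44 against 4.49 and 4.504 in HC11. It is a neighbour of Yap1 in a stretch of chromosome 9 where most genes were higher in BC44, described with the chromosomes.

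The promoters of some of these genes carry the letters of an NF-kB site, and 4 of them are shown because chemokines, Il6 and the inhibitor Nfkbia were high together in HC11. The sequences are RefSeq promoters of mouse build GRCm38.p6, 250 bases before to 50 after an annotated start, printed on the strand of the gene. Capitals mark matches of GGANNTTCC or its reverse complement. A site can match on both strands. The Cxcl1 promoter (chr5:90890995-90891294, plus strand) held 1 match, whose first base was at -70 from the start. The Cxcl2 promoter (chr5:90903649-90903948, plus strand) held 1 at -96, the Il6 promoter (chr5:30012864-30013163, plus strand) 1 at -43, and the Nfkbia promoter (chr12:55492598-55492897, minus strand) 2 at -178 and -29.
Cxcl1: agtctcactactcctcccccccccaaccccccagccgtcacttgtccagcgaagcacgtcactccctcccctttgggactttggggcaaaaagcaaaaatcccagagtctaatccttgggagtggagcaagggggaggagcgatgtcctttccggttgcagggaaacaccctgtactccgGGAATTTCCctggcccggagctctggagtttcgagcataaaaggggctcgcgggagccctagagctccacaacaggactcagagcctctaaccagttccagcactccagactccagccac
Cxcl2: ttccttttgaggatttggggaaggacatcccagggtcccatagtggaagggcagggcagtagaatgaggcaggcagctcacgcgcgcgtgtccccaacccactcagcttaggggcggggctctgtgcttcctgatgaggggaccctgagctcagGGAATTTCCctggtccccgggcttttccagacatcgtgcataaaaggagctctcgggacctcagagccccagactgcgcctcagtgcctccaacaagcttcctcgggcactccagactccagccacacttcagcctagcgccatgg
Il6: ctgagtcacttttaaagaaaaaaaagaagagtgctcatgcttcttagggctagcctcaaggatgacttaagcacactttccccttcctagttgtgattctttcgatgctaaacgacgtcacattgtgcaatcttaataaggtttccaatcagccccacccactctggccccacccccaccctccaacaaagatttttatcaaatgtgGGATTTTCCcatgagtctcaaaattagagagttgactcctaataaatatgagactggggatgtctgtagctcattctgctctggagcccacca
Nfkbia: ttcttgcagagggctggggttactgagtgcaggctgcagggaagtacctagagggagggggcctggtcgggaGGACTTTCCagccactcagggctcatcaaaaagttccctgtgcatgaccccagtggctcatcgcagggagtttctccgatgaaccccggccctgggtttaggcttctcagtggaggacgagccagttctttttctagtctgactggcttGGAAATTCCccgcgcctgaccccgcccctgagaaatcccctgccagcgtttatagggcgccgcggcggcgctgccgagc
Among the 10389 promoters found for 8149 of the tested genes, 4.61% held a match. Among genes at least 2-fold higher in BC44 4.1% of promoters held a match, and among those at least 2-fold higher in HC11 6.46%. Of the 12 promoters of 10 HC11-high cytokines 5 did (Cxcl1, Cxcl2, Cxcl3, Il6 and Il19), which is 41.7%, and of the 13 promoters of 11 HC11-high NF-kB genes 6 did, 46.2%. None of the 11 promoters of 9 HC11-high acute-phase genes held these letters in this window. These shares describe letters in a sequence and not the binding of a factor, and the members had been chosen for their function.

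Acute-phase and antimicrobial genes, which epithelia secrete in response to cytokines, were mostly higher in HC11. Of 19 tested members 11 were at least 2-fold higher in HC11 and 3 in BC44, with a median log2 difference of -1.91. The BC44 count was 1 without HC11 replicate 2. Lipocalin 2 (Lcn2), which sequesters bacterial iron carriers, was at 124 and 249.7 RPKM in HC11 against 0.03 and 0.1 in BC44. The protease inhibitor Slpi was at 375 and 677 RPKM in HC11 against 2.55 and 2.67 in BC44. Complement component C3 was at 124 and 163 RPKM in HC11 against 1.73 and 1.97 in BC44. Wfdc2, another secreted whey-acidic-protein domain inhibitor, was at 308 and 327 RPKM in HC11 against 9.599 and 8.35 in BC44. Wfdc2 was nearly equal in the HC11 replicates, unlike Lcn2 and Slpi, whose level in replicate 2 was well above that in replicate 1. Their log2 differences were -7.38 (SE 0.34, adjusted p = 3.7e-06), -7.13 (SE 0.24), -5.65 (SE 0.24) and -5.00 (SE 0.10). The calprotectin subunits S100a8 and S100a9 were listed at 0 in both BC44 libraries and were at 41.6 and 91.9 RPKM and 4.23 and 14.3 RPKM in HC11. Inducible nitric oxide synthase (Nos2) was at 10.6 and 40.9 RPKM in HC11 against 0.016 and 0 in BC44. Nos2 was also higher in HC11 replicate 2, as the calprotectin genes were. Ceruloplasmin (Cp), a plasma copper oxidase, was at 31.8 and 23.2 RPKM in HC11 against 4.397 and 3.44 in BC44. The iron reductase Steap4 was at 12.2 and 10.5 RPKM in HC11 against 0 and 0.018 in BC44. Cp and Steap4 were not higher in replicate 2. On the BC44 side, beta-defensin 1 (Defb1), an antimicrobial peptide, was at 6.28 and 11.3 RPKM in BC44 against 0 and 0 in HC11. The hydrogen peroxide source Duox1 was at 2.47 and 2.796 RPKM in BC44 against 0.92 and 0.623 in HC11. Its maturation factor Duoxa1 was at 5.07 and 4.99 RPKM in BC44 against 2.33 and 1.69 in HC11. Defb1 was listed at 0 in both HC11 libraries, while the HC11 values of the other two were above the floor.

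The receiving side of cytokine signalling was tilted in the same direction. Of 31 cytokine and TNF family receptors 13 were at least 2-fold higher in HC11 and 1 in BC44. Il13ra1 was at 18.5 and 17.6 RPKM in HC11 against 0.074 and 0.494 in BC44. Il4ra, its partner in the type II interleukin-4 receptor, was at 20.4 and 20.4 RPKM in HC11 against 2.46 and 2.86 in BC44. The interleukin-1 receptor accessory protein Il1rap was at 23.5 and 22.5 RPKM in HC11 against 2.88 and 3.03 in BC44. These receptor chains were level between the HC11 replicates. The interleukin-33 receptor Il1rl1 was at 8.92 and 12.9 RPKM in HC11 against 0.159 and 0.241 in BC44. The death receptor Fas was at 7.14 and 10.97 RPKM in HC11 against 0.152 and 0.477 in BC44. Fas is also a p53 target. The type I interferon receptor chain Ifnar2 was at 14.7 and 17.2 RPKM in HC11 against 3.45 and 3.89 in BC44. The interferon gamma receptor chain Ifngr2 was at 19.2 and 20.2 RPKM in HC11 against 4.33 and 5.79 in BC44. Their log2 differences ran from -3.91 for Il13ra1 to -1.78 for Ifngr2, and all passed. The receptor past 2-fold in BC44 was Il22ra1, the epithelial receptor for interleukin-22, at 3.49 and 3.99 RPKM in BC44 against 0.545 and 0.489 in HC11. Of 24 JAK, STAT and SOCS genes 5 were at least 2-fold higher in HC11. STAT3 carries the gp130 signal to the nucleus, and SOCS3 is its feedback inhibitor. Stat3 was at 41.04 and 37.2 RPKM in HC11 against 14.8 and 14.1 in BC44. Socs3 was at 112 and 135 RPKM in HC11 against 7.64 and 6.28 in BC44. Their log2 differences were -1.38 (SE 0.09, adjusted p = 1.97e-05) and -3.96 (SE 0.13, adjusted p = 1.09e-06). Socs1, Socs2 and Cish, feedback inhibitors of interferon, growth hormone and prolactin signalling, differed by -2.29 (SE 0.12), -1.50 (SE 0.14) and -1.01 (SE 0.10). The STAT inhibitor Pias3 was higher in BC44, at 8.15 and 8.03 RPKM in BC44 against 3.61 and 3.13 in HC11.

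Antigen presentation showed a smaller difference, mostly in one direction. Of 16 tested genes of MHC class I presentation 13 passed as higher in HC11 and 0 as higher in BC44, 6 of them at least 2-fold, with a median log2 difference of -0.94. The summed level of the list was nearly equal, 1021 and 1056 RPKM in BC44 and 1056 and 1223 RPKM in HC11. The classical heavy chain H2-K1 was at 15.6 and 14.9 RPKM in HC11 against 6.92 and 5.74 in BC44. The peptide transporter subunit Tap2 was at 2.52 and 2.16 RPKM in HC11 against 0.543 and 0.515 in BC44. The proteasome activator subunit Psme1 was at 34.95 and 30.05 RPKM in HC11 against 9.29 and 9.73 in BC44. Its partner Psme2 was at 38.98 and 34.3 RPKM in HC11 against 12.7 and 12.9 in BC44. The HC11 libraries lay above the BC44 libraries for each of these genes, again a description of genes picked for their differences. H2-K1 and H2-Q4 belong to a family of near-identical genes, so that reads could be split among copies. Among 21 tested interferon-response genes 7 passed as higher in HC11 and 4 of these were at least 2-fold higher, while 0 passed as higher in BC44. Irf1, the interferon-inducible activator of MHC class I genes, was at 14.7 and 16.9 RPKM in HC11 against 4.44 and 5.59 in BC44. Gbp2, a guanylate-binding protein, was at 7.73 and 18.9 RPKM in HC11 against 1.66 and 1.98 in BC44. Gbp2 was higher in HC11 replicate 2 than in replicate 1, as the cytokines were. The other 14 interferon-response genes did not pass, a share of calls (33.3%) below the 49.2% of all genes.

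**Figure D3:**
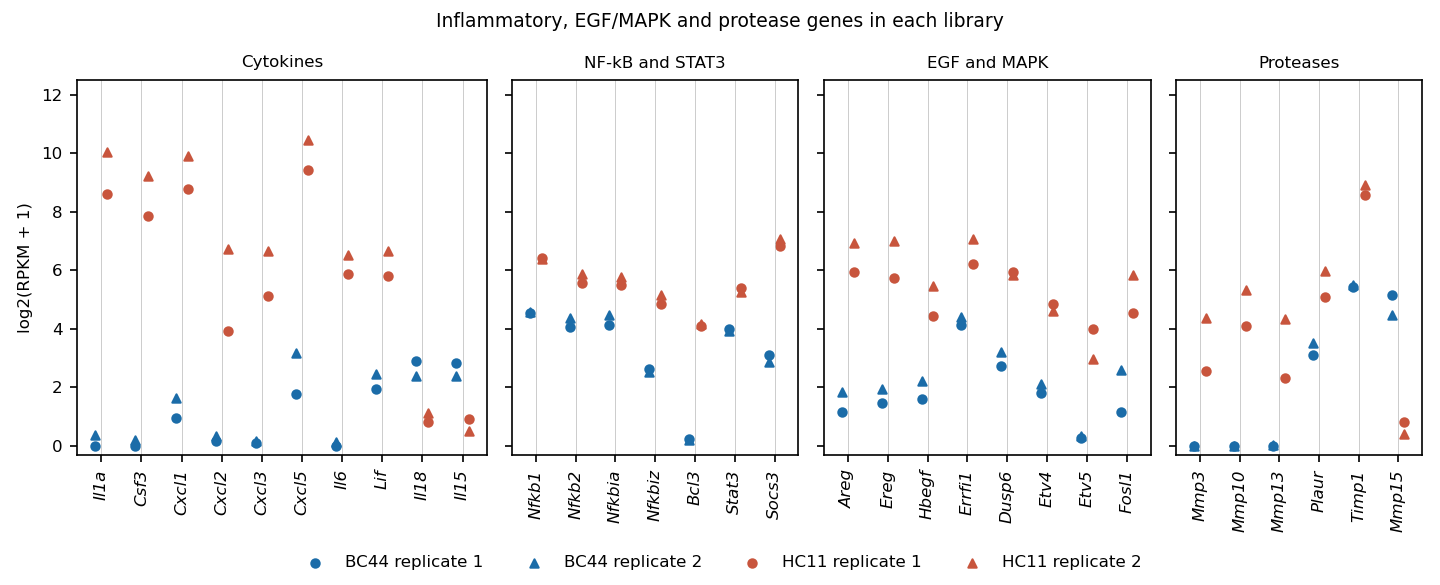
Level of 31 genes of inflammation, EGF and MAPK signalling and matrix proteolysis as log2(RPKM + 1), with circles for replicate 1 and triangles for replicate 2 of BC44 (blue) and HC11 (red). The red points lie above the blue for all genes shown apart from Il18, Il15 and Mmp15, and the triangles of HC11 lie above its circles for most cytokines and EGF ligands.

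EGF was present in the medium of HC11 alone, so a part of EGF in the differences below cannot be told apart from the line. The EGF family, the MAPK feedback genes and the immediate early genes were all tilted to HC11 against BC44. C57MG, also grown without EGF, is given for a few of them. Of 16 tested EGF family ligands, ErbB receptors and their direct inhibitors, 8 were at least 2-fold higher in HC11 and 1 in BC44. The ligands led. Amphiregulin (Areg), the EGF receptor ligand of ductal growth in puberty, was at 59.8 and 121 RPKM in HC11 against 1.25 and 2.58 in BC44. In C57MG it was at 39.97 and 27.5 RPKM. Epiregulin (Ereg) was at 52.3 and 126 RPKM in HC11 against 1.77 and 2.85 in BC44, and at 0.013 and 0 in C57MG. Heparin-binding EGF (Hbegf) was at 20.5 and 42.7 RPKM in HC11 against 2.02 and 3.65 in BC44. Transforming growth factor alpha (Tgfa) was at 20.96 and 21.4 RPKM in HC11 against 6.84 and 6.38 in BC44. Tgfa was level between the HC11 replicates, and the other ligands were higher in replicate 2. The log2 differences were -4.92 (SE 0.35, adjusted p = 2.89e-05), -4.65 (SE 0.36, adjusted p = 4.33e-05), -3.03 (SE 0.33) and -1.54 (SE 0.10). Neuregulin 1 (Nrg1) and betacellulin (Btc) differed by -1.48 (SE 0.23) and -1.05 (SE 0.21). The receptors did not pass. Egfr was at 6.82 and 7.39 RPKM in BC44 against 6.42 and 9.26 in HC11, with a log2 difference of -0.11 (SE 0.17, adjusted p = 0.636). Erbb2 was at 29.9 and 26.3 RPKM in BC44 against 24.7 and 17.8 in HC11, with 0.40 (SE 0.15, adjusted p = 0.0592). Without HC11 replicate 1 the adjusted p of Erbb2 was 0.00869, and with a replicate block 0.0309. Of the receptor inhibitors, Errfi1, which blocks the kinase domain, was at 73.04 and 133 RPKM in HC11 against 16.6 and 20.2 in BC44. Lrig1, which promotes receptor degradation and marks quiescent epithelial stem cells, was at 44.03 and 55.5 RPKM in HC11 against 2.88 and 2.03 in BC44. Its relative Lrig3 went the other way, at 9.07 and 7.71 RPKM in BC44 against 2.01 and 1.74 in HC11, with a log2 difference of 1.71 (SE 0.12, adjusted p = 2.44e-05) against -3.88 (SE 0.15) for Lrig1.

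The MAPK cascade is read out by a set of genes that it induces and that restrain it. Of 22 tested feedback phosphatases, Sprouty genes and Etv factors, 11 were at least 2-fold higher in HC11 and 3 in BC44. Dusp6, the phosphatase of ERK, was at 61.1 and 55.7 RPKM in HC11 against 5.602 and 8.32 in BC44. In C57MG it was at 1.25 and 1.23 RPKM. Dusp4 was at 16.998 and 14.7 RPKM in HC11 against 2.42 and 1.67 in BC44. Dusp5 was at 7.599 and 21.1 RPKM in HC11 against 1.19 and 1.04 in BC44. The dual-specificity phosphatases remove the activating phosphates of MAP kinases. The ETS factor Etv4 was at 28.1 and 23.2 RPKM in HC11 against 2.47 and 3.29 in BC44. Its relative Etv5 was at 14.9 and 6.91 RPKM in HC11 against 0.217 and 0.251 in BC44. Unlike the ligands, Etv4, Etv5 and Dusp6 were not higher in HC11 replicate 2 than in replicate 1. Ier3, an immediate early survival gene, was at 262 and 522 RPKM in HC11 against 16.3 and 24.7 in BC44. Phlda1 was at 85.6 and 136 RPKM in HC11 against 9.05 and 11.8 in BC44. Dusp6, Etv5 and Ier3 differed by -2.92 (SE 0.16, adjusted p = 8.46e-06), -3.19 (SE 0.32, adjusted p = 0.00016) and -4.14 (SE 0.31, adjusted p = 3.89e-05). Among the 3 members higher in BC44, Dusp2 was at 1.67 and 1.29 RPKM in BC44 against 0.081 and 0.07 in HC11. Dusp8, a phosphatase of stress kinases, was at 12.6 and 18.6 RPKM in BC44 against 5.77 and 7.64 in HC11. The ephrin receptor Epha4 is given with the guidance genes. Of 29 AP-1 and immediate early genes, 9 were at least 2-fold higher in HC11 and 1, Mycl, in BC44. AP-1 is the dimer of Fos and Jun proteins. Fosl1 was at 22.3 and 56.6 RPKM in HC11 against 1.24 and 5.04 in BC44. Fos was at 6.96 and 12.7 RPKM in HC11 against 0.436 and 0.853 in BC44. Egr1, a zinc finger factor induced within minutes of growth factor addition, was at 10.6 and 11.8 RPKM in HC11 against 1.25 and 1.96 in BC44. On the log2 scale they differed by -3.31 (SE 0.54, adjusted p = 0.00174), -2.68 (SE 0.25) and -2.24 (SE 0.15). Mycl was at 8.401 and 6.33 RPKM in BC44 against 1.03 and 0.743 in HC11.

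Matrix proteases and their inhibitors, which remodel the tissue around epithelial branches and wounds, held 17 members at least 2-fold higher in HC11 and 4 at least 2-fold higher in BC44 among 45 tested. Stromelysins and collagenase were nearly private to HC11. Mmp10 was at 15.97 and 39.4 RPKM in HC11 against 0 and 0 in BC44. Mmp3 was at 4.85 and 19.9 RPKM in HC11 against 0 and 0 in BC44. Mmp13 was at 3.98 and 19.12 RPKM in HC11 against 0 and 0.021 in BC44. In each case HC11 replicate 2 was more than 2 times as high as replicate 1. On the log2 scale they differed by -4.71 (SE 0.34, adjusted p = 3.11e-05), -3.47 (SE 0.49, adjusted p = 0.000871) and -3.31 (SE 0.53, adjusted p = 0.00169). The plasminogen system followed: tissue plasminogen activator (Plat) was at 26.04 and 43.1 RPKM in HC11 against 3.297 and 2.898 in BC44. The urokinase receptor (Plaur) was at 33.02 and 62.04 RPKM in HC11 against 7.54 and 10.3 in BC44. Inhibitors were higher as well. Serpine2, an inhibitor of thrombin and plasminogen activators, was at 165 and 214 RPKM in HC11 against 0.107 and 0.015 in BC44. Timp1 was at 383 and 482 RPKM in HC11 against 41.8 and 44.6 in BC44. On the log2 scale they differed by -7.48 (SE 0.14, adjusted p = 1.72e-07) and -3.29 (SE 0.15, adjusted p = 3.17e-06). The membrane-anchored and serine proteases of BC44 were others. Mmp15, a membrane-type metalloprotease, was at 34.7 and 21.2 RPKM in BC44 against 0.78 and 0.337 in HC11. Prss23 was at 15.1 and 17.6 RPKM in BC44 against 3.65 and 2.98 in HC11. Tmprss4, a transmembrane serine protease of epithelia, was at 3.54 and 2.37 RPKM in BC44 against 0.416 and 0.216 in HC11. Mmp15 differed by 4.19 (SE 0.23, adjusted p = 8.92e-06).

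The stromelysin and collagenase genes are neighbours on chromosome 9, and their promoters are shown because each carries the letters of an AP-1 site. As above, the letters are not a measure of binding, and a part of AP-1 in these differences was not tested. Capitals mark matches of TGANTCA, which reads the same on both strands. The Mmp3 promoter (chr9:7445572-7445871, plus strand) held 1 match at -46, the Mmp10 promoter (chr9:7502092-7502391, plus strand) 1 at -63 and the Mmp13 promoter (chr9:7272264-7272563, plus strand) 1 at -35 from the start, all from RefSeq on build GRCm38.p6.
Mmp3: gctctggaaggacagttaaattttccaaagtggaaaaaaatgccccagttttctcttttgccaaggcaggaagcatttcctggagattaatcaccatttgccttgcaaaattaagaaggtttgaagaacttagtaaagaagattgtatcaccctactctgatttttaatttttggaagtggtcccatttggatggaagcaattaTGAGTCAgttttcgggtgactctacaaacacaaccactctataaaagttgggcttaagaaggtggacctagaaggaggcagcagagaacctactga
Mmp10: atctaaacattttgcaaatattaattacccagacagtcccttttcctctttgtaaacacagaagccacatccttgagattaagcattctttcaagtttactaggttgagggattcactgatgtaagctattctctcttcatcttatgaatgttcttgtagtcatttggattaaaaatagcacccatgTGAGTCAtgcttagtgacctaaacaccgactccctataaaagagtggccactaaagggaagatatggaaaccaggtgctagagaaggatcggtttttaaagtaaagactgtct
Mmp13: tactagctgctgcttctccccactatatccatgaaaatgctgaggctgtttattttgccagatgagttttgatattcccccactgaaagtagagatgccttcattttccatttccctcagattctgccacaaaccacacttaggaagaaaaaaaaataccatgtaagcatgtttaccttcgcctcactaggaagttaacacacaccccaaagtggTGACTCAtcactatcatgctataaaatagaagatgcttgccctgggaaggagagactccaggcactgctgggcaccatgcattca
A match was held by 5% of all promoters, by 7.13% of those of genes at least 2-fold higher in BC44 and by 9.35% of those of genes at least 2-fold higher in HC11. Of the 16 promoters of 14 HC11-high proteases and inhibitors 7 held a match (43.8%), and 2 of the 9 promoters of 3 BC44-high ones (22.2%). The letters TATAAA stood in 37.5% of the former 16 promoters and in 6.86% of all promoters. Mmp3, Mmp10, Mmp12 and Mmp13 lie within a stretch where most other genes were higher in BC44, so they ran against their neighbours.

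Keratins, the filament proteins that name epithelial layers, separated the lines into a basal and a mixed pattern. Keratin 8 was at 144 and 148 RPKM in HC11 against 0.038 and 0.064 in BC44. Keratin 18 was at 88.5 and 94.1 RPKM in HC11 against 0 and 0 in BC44. Keratin 7 was at 49.1 and 68.9 RPKM in HC11 against 0.078 and 0.016 in BC44. These luminal filament genes were at or under the floor in both BC44 libraries, and their log2 differences were -7.13 (SE 0.11, adjusted p = 8.48e-08), -6.53 (SE 0.10, adjusted p = 8.48e-08) and -5.82 (SE 0.16, adjusted p = 6.31e-07). The basal keratins were abundant in both lines and tended to be higher in BC44. Keratin 14 was at 2716 and 2736 RPKM in BC44 against 1409 and 1073 in HC11. Keratin 5 was at 2012 and 1828 RPKM in BC44 against 1000.1 and 534 in HC11. Keratin 17 was at 1923 and 1820.2 RPKM in BC44 against 1261 and 1281 in HC11. The libraries did not overlap for any of these 3 genes. Krt14 passed, with 1.15 (SE 0.25, adjusted p = 0.00761), but not without BC44 replicate 1 (adjusted p = 0.0537), BC44 replicate 2 (0.054) or HC11 replicate 2 (0.0682). Krt5 and Krt17 did not pass, with 1.39 (SE 1.04, adjusted p = 0.306) and 0.56 (SE 0.28, adjusted p = 0.143). The fit used the spread of all 6 libraries, and in C57MG replicate 1 11 genes high in BC44 stood at a median of 0.729% of their BC44 level, against 0 in C57MG replicate 2. With the 4 BC44 and HC11 libraries alone the adjusted p was 0.00362 for Krt5 and 0.0031 for Krt17. Keratin 16, a keratin of proliferating and wounded epidermis, was at 288 and 322 RPKM in BC44 against 53.6 and 71.8 in HC11 and differed by 2.28 (SE 0.28, adjusted p = 0.000461). Keratin 15, a keratin of basal progenitors, was at 2.63 and 1.297 RPKM in BC44 against 0.03 and 0 in HC11. In all, 5 of 14 keratins were at least 2-fold higher in BC44 and 3 in HC11, and the first count was 3 without BC44 replicate 1 or without BC44 replicate 2.

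Other markers of the mammary layers divided in a similar way with exceptions in both directions. Of 24 listed luminal markers 14 were in the table and 12 were tested. Of these 12 tested markers 8 were at least 2-fold higher in HC11 and 2 in BC44, with a median log2 difference of -2.48. Of 20 listed basal markers 18 were in the table and 15 were tested. Of these 15 tested markers 6 were at least 2-fold higher in BC44 and 2 in HC11, with a median of 0.97. The BC44 count was 4 without BC44 replicate 2 and 4 without HC11 replicate 2. Gata3, the factor of luminal commitment, was at 5.36 and 6.37 RPKM in HC11 against 0.034 and 0.086 in BC44. The luminal ETS factor Ehf was at 6.99 and 8.46 RPKM in HC11 against 1.12 and 0.966 in BC44. The lipopolysaccharide co-receptor Cd14, a luminal progenitor marker, was at 19.6 and 31.9 RPKM in HC11 against 1.87 and 1.896 in BC44. Gata3 was at a mean of 7.87 RPKM in the fibroblast-marker-rich C57MG line, so that it did not follow the epithelial character of the lines. Both luminal-list members past 2-fold in BC44 were surface antigens of the Ly6 family. Ly6a (Sca-1) was at 573 and 383 RPKM in BC44 against 26.8 and 7.92 in HC11. Ly6d was at 406 and 273 RPKM in BC44 against 19.7 and 5.66 in HC11. For each, HC11 replicate 1 was higher than HC11 replicate 2. Among the basal markers, the Notch ligand Dll1 was at 15.4 and 17.3 RPKM in BC44 against 1.17 and 1.605 in HC11. Igfbp4, also counted as higher in BC44, was at 2.215 and 6.619 RPKM in BC44 against 0.793 and 1.28 in HC11. Its BC44 mean was 1.27% of its C57MG mean of 349 RPKM. The part of C57MG-like signal in it was not tested further, and with robust variance in limma its adjusted p was 0.0591. Procr, the protein C receptor that marks mammary stem cells, went against the list at 19.5 and 69.1 RPKM in HC11 against 1.89 and 3.301 in BC44. Trp63, the master factor of basal epithelia, was at 24.4 and 25.6 RPKM in BC44 against 20.5 and 17.8 in HC11 and passed with a log2 difference of 0.37 (SE 0.11, adjusted p = 0.0284), which was not kept without BC44 replicate 1, BC44 replicate 2 or HC11 replicate 2. Contractile smooth-muscle genes gave 1 of 12 at least 2-fold higher in each line, Tpm1 in BC44 and Cald1 in HC11.

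Among 30 transcription factors with roles in mammary lineages 9 were at least 2-fold higher in HC11 and 4 in BC44, the latter being 2 without HC11 replicate 2. Snai2 (Slug), a basal factor, was at 32.1 and 42.9 RPKM in BC44 against 10.8 and 10.03 in HC11. Bcl11b, a factor of quiescent basal stem cells, was at 5.75 and 4.95 RPKM in BC44 against 0.206 and 0.181 in HC11. In log2 units the differences came to 1.74 (SE 0.15, adjusted p = 7.11e-05) and 2.41 (SE 0.11, adjusted p = 3.7e-06). The related factor Snai1 went the other way, at 22.3 and 25.6 RPKM in HC11 against 2.28 and 2.72 in BC44, with -2.83 (SE 0.11, adjusted p = 1.74e-06), and stood at a mean of 45.7 RPKM in C57MG. The inhibitor of DNA binding genes were split: Id1 and Id3 were higher in HC11, with -1.23 (SE 0.16) and -1.63 (SE 0.23). Id4, which is restricted to basal cells in the gland, was at 63.2 and 44.7 RPKM in BC44 against 31.3 and 19.003 in HC11, a difference that was lost without BC44 replicate 1 (adjusted p = 0.1) or HC11 replicate 2 (0.0868). Of the genes of milk and lactation 8 of 22 were tested, and 3 were at least 2-fold higher in HC11: Lcn2, Cish and the milk fat globule enzyme Xdh, at 78.2 and 103 RPKM in HC11 against 17.2 and 20.03 in BC44. No lactogenic hormone was among the labelled medium additions apart from insulin.

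Adhesion genes were tilted to BC44. Of 27 tested cadherins and desmosome genes 11 were at least 2-fold higher in BC44 and 2 in HC11, with a median log2 difference of 0.46. P-cadherin (Cdh3), the cadherin of the basal layer, was at 114 and 108 RPKM in BC44 against 23.3 and 22.6 in HC11, while Cdh1 did not pass. The desmosomal cadherin Dsg3 was at 123 and 124 RPKM in BC44 against 39.1 and 32.3 in HC11. The related Dsg1a was at 6.92 and 9.23 RPKM in BC44 against 0 and 0 in HC11. Perp, a desmosome-associated membrane protein, was at 792 and 680.1 RPKM in BC44 against 218 and 207 in HC11. In log2 units the differences came to 2.22 (SE 0.24, adjusted p = 0.000239), 1.76 (SE 0.31, adjusted p = 0.00261), 3.17 (SE 0.14, adjusted p = 3.09e-06) and 1.78 (SE 0.10, adjusted p = 8.92e-06). Desmoplakin (Dsp), the link from desmosomes to keratin filaments, was at 144 and 146 RPKM in BC44 against 68.2 and 53.9 in HC11, a passing difference (adjusted p = 0.0122) that was lost without either BC44 library or HC11 replicate 2. With a pseudocount of 0.1 the calls of Dsp and Dsg3 were also lost (adjusted p = 0.326 and 0.194). That fit included C57MG, where Dsp was at 1.167 and 0.013 RPKM and Dsg3 at 1.185 and 0 RPKM. The part of this C57MG spread in the lost calls was not tested. Plakoglobin (Jup) was at 193 and 185 RPKM in BC44 against 112 and 91.9 in HC11 and did not pass with all 6 libraries, with an adjusted p of 0.0763, but did with the 4 BC44 and HC11 libraries (0.000709). The atypical cadherins, 2 of them regulators of planar polarity, were higher in BC44 too. Celsr1 was at 13.9 and 13.5 RPKM in BC44 against 0.721 and 0.594 in HC11. Celsr2 was at 18.2 and 13.7 RPKM in BC44 against 6.56 and 4.001 in HC11. Fat2 was at 14.6 and 12.8 RPKM in BC44 against 2.52 and 1.44 in HC11. The HC11 values were within a factor of 2 of each other for all 3. The 2 members past 2-fold in HC11 were a desmosomal plaque protein and a protocadherin. Plakophilin 2 (Pkp2) was at 8.43 and 7.28 RPKM in HC11 against 1.31 and 1.29 in BC44. Protocadherin 7 (Pcdh7) was at 20.2 and 26.8 RPKM in HC11 against 7.12 and 8.99 in BC44. Gap junction genes differed in kind: Gja1, the connexin of myoepithelial cells, was at 144 and 141 RPKM in BC44 against 55.7 and 65.3 in HC11, and Gjb2, a connexin of luminal cells, was listed at 0 in BC44 and was at 8.996 and 7.08 RPKM in HC11. Connexins pair across cells, and pannexins form channels to the outside. The pannexin channel Panx1 was at 16.7 and 16.1 RPKM in BC44 against 2.34 and 2.07 in HC11. The related Panx3 was at 4.81 and 6.19 RPKM in BC44 against 0.405 and 0.157 in HC11. Panx1 and Panx3 lie in stretches of chromosome 9 where most genes were higher in BC44. Gjb2 lies in a stretch of chromosome 14 that was higher in HC11, and these stretches are described with the chromosomes.

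Tight junctions, the seals of luminal cells, leaned to HC11, with 5 of 17 members at least 2-fold higher there and 1 in BC44. Claudin 3 (Cldn3) was at 80.4 and 68.9 RPKM in HC11 against 0 and 0 in BC44. Claudin 4 (Cldn4) was at 23.2 and 28.2 RPKM in HC11 against 4.42 and 4.59 in BC44. Claudin 23 (Cldn23) was at 6.49 and 7.28 RPKM in HC11 against 0.074 and 0.093 in BC44. The paracingulin Cgnl1 was at 8.31 and 10.7 RPKM in HC11 against 0.087 and 0.146 in BC44. Attachment to the basement membrane was mixed. Of 30 genes of hemidesmosomes, epithelial laminins and integrins 5 were at least 2-fold higher in BC44 and 8 in HC11. The transmembrane anchor collagen XVII (Col17a1) was at 330.1 and 334 RPKM in BC44 against 74.8 and 81.6 in HC11. Collagen VII (Col7a1), which forms anchoring fibrils, was at 45.6 and 31.5 RPKM in BC44 against 8.55 and 8.68 in HC11. Dystonin (Dst), the plaque protein that binds keratins, was at 37.5 and 40.5 RPKM in BC44 against 10.7 and 12.6 in HC11. Integrin beta 4 (Itgb4), which binds collagen XVII in the same hemidesmosome, was at 193 and 185 RPKM in HC11 against 71.4 and 77.01 in BC44 and lies in the chromosome 11 stretch described with the chromosomes. The log2 differences were 2.07 (SE 0.42, adjusted p = 0.00501), 2.02 (SE 0.16), 1.67 (SE 0.11) and -1.34 (SE 0.17, adjusted p = 0.000533). With a pseudocount of 0.1 the adjusted p of Col17a1 was 0.0601, in a fit that included C57MG, where it was at 3.187 and 0.394 RPKM. The linked type IV collagen genes Col4a1 and Col4a2 were both higher in HC11. Col4a1 was at 32.6 and 26.98 RPKM in HC11 against 7.92 and 8.74 in BC44. Col4a2 was at 51.2 and 43.03 RPKM in HC11 against 16.4 and 17.9 in BC44. The laminin chain Lama4 was at 8.803 and 9.49 RPKM in HC11 against 0 and 0.014 in BC44.

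Of 32 collagens and crosslinking genes 9 were at least 2-fold higher in BC44 and 7 in HC11. Collagen XII (Col12a1), a fibril-associated collagen, was at 51.4 and 57.3 RPKM in BC44 against 2.45 and 4.44 in HC11. Collagen XVIII (Col18a1), the source of endostatin, was at 63.3 and 55.7 RPKM in BC44 against 17.6 and 12.6 in HC11. Col12a1 differed by 3.67 (SE 0.19, adjusted p = 6.63e-06). Transglutaminase 2 (Tgm2), a matrix crosslinker, was at 13.7 and 18.1 RPKM in HC11 against 1.29 and 0.883 in BC44, and the small proteoglycan decorin (Dcn) was listed at 0 in BC44 and was at 1.68 and 3.78 RPKM in HC11. The fibrillar collagen gene Col1a1 was at 1.02 and 3.397 RPKM in BC44 against 0.172 and 0.202 in HC11, and at a mean of 167 RPKM in C57MG. Col3a1 was at 1.71 and 2.76 RPKM in BC44 against 0.026 and 0.017 in HC11, and at a mean of 25.9 RPKM in C57MG. Col1a1 was higher in BC44 replicate 2 than in replicate 1, as the C57MG-like signal was, and its call was lost without either HC11 library. Lysyl oxidase (Lox) was at 5.901 and 10.7 RPKM in BC44 against 0.302 and 0.508 in HC11, against a mean of 317 RPKM in C57MG. The BC44 means were 1.32% (Col1a1), 8.63% (Col3a1) and 2.62% (Lox) of the C57MG means. Genes high in C57MG stood at medians of 0.666% and 2.02% in BC44 replicates 1 and 2. A median share of C57MG signal was subtracted from every gene as a setting, and no share was measured gene by gene. The part of such signal in these low BC44 values was not tested further.

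**Figure D4:**
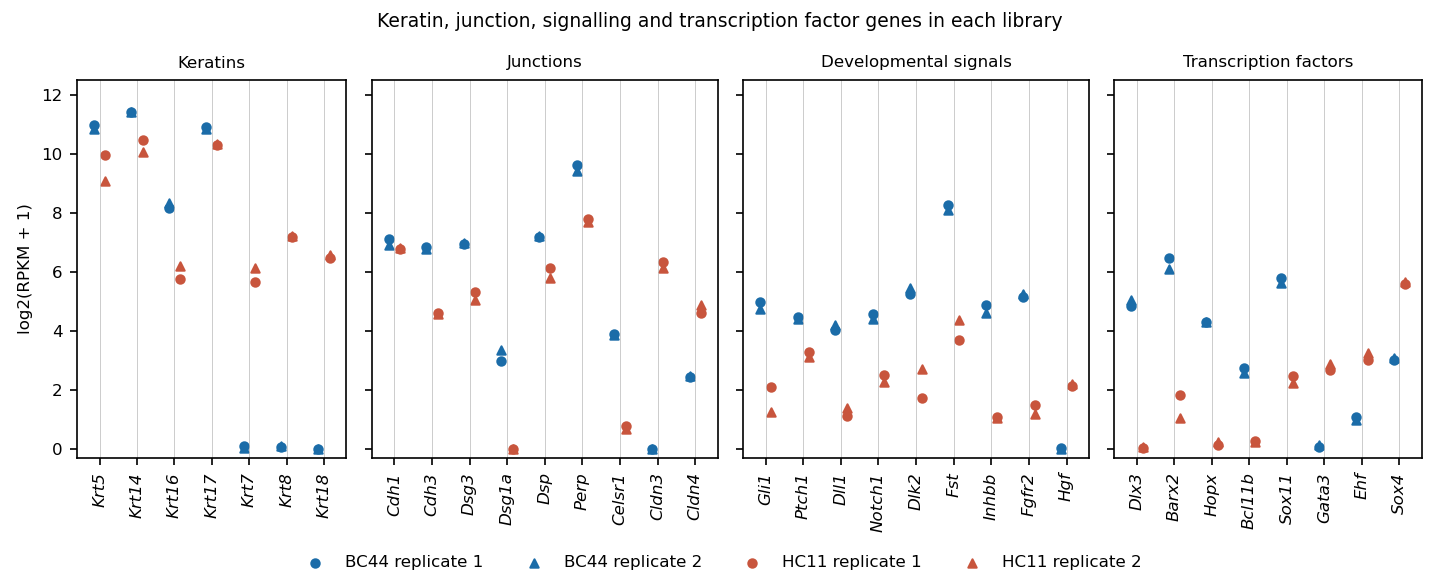
Level of 33 keratin, junction, signalling and transcription factor genes as log2(RPKM + 1), with circles for replicate 1 and triangles for replicate 2 of BC44 (blue) and HC11 (red). Basal keratins are high in both lines, luminal keratins and Cldn3 are near 0 in BC44 alone, and P-cadherin, the hedgehog and Notch genes and Dlx3, Barx2 and Hopx stand higher in BC44.

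In the hedgehog pathway a secreted ligand frees the cell from the inhibitor Ptch1 and activates Gli factors, and Gli1 and Ptch1 are themselves targets. Of 9 tested members 4 were at least 2-fold higher in BC44 and 0 in HC11, and this count was the same without each of the 4 libraries. Gli1 was at 30.5 and 25.8 RPKM in BC44 against 3.28 and 1.39 in HC11. Ptch1 was at 21.3 and 20.2 RPKM in BC44 against 8.76 and 7.65 in HC11. The co-receptor Boc was at 6.63 and 4.13 RPKM in BC44 against 0.218 and 0.157 in HC11. The co-receptor Gas1 was at 32.8 and 34.5 RPKM in BC44 against 8.49 and 3.79 in HC11. The log2 differences were 3.19 (SE 0.25, adjusted p = 4.74e-05), 1.24 (SE 0.10, adjusted p = 4.53e-05), 2.40 (SE 0.18, adjusted p = 3.75e-05) and 2.36 (SE 0.30, adjusted p = 0.000507). The BC44 libraries lay above the HC11 libraries for each, and the genes were picked with this in view.

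Notch receptors read ligands on neighbouring cells and direct luminal fate in the gland. Of 20 tested genes 6 were at least 2-fold higher in BC44 and 3 in HC11. The ligand Dll1 was given with the basal markers. The ligand Jag1 was at 25.4 and 30.4 RPKM in BC44 against 9.57 and 14.8 in HC11. The non-canonical ligand Dlk2 was at 36.8 and 42.4 RPKM in BC44 against 2.32 and 5.45 in HC11. The receptor Notch1 was at 23.02 and 20.2 RPKM in BC44 against 4.63 and 3.83 in HC11. Lfng, a glycosyltransferase that tunes receptor choice, was at 69.4 and 71.9 RPKM in BC44 against 21.97 and 18.4 in HC11. Dll1, Dlk2 and Notch1 differed by 2.86 (SE 0.14, adjusted p = 4.37e-06), 3.13 (SE 0.27, adjusted p = 7.45e-05) and 2.11 (SE 0.17, adjusted p = 4.84e-05). The DNA-binding effector Rbpj was higher in HC11, at 11.8 and 14.1 RPKM in HC11 against 4.49 and 4.44 in BC44. The ubiquitin ligase Dtx4 was at 6.93 and 4.95 RPKM in HC11 against 0.095 and 0.099 in BC44. Hes6 was at 6.999 and 6.18 RPKM in HC11 against 1.97 and 1.17 in BC44. Guidance genes first known from axons also steer epithelial cells. Of 41 tested semaphorins, plexins, Ephs, ephrins, Slits and netrins 12 were at least 2-fold higher in BC44 and 4 in HC11, the latter being 2 without HC11 replicate 2. Eph receptors and ephrins repel cells of different kinds at borders. The Eph receptor Ephb3 was at 30.98 and 26.1 RPKM in BC44 against 4.61 and 3.81 in HC11. Ephb2 was at 3 and 2.66 RPKM in BC44 against 0.047 and 0.033 in HC11, and Ephb1 was at 2.72 and 2.46 RPKM in BC44 and listed at 0 in both HC11 libraries. Epha4 was at 5.87 and 7.399 RPKM in BC44 against 0.383 and 0.276 in HC11. The class III semaphorins Sema3a, Sema3e and Sema3f differed by 1.97 (SE 0.11), 1.51 (SE 0.14) and 1.62 (SE 0.13), and the plexin Plxna1 by 1.73 (SE 0.12). The plexin Plxnd1 went the other way, at 7.913 and 8.355 RPKM in HC11 against 1.312 and 1.849 in BC44, with -1.83 (SE 0.12). Slit2, a repellent that limits mammary branching, was higher in HC11, at 7.13 and 10.4 RPKM in HC11 against 0.032 and 0.042 in BC44, with -3.21 (SE 0.16, adjusted p = 5.56e-06).

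The TGF-beta family was divided between its inhibitors. Of 30 tested ligands, receptors, Smads and targets 6 were at least 2-fold higher in BC44 and 8 in HC11. Follistatin (Fst), a trap for activins, was at 306 and 273 RPKM in BC44 against 11.98 and 19.7 in HC11. Inhbb, the beta B subunit of activin, was at 28.7 and 23.4 RPKM in BC44 against 1.11 and 1.08 in HC11. Follistatin-like 1 (Fstl1) was at 24.9 and 23.96 RPKM in HC11 against 0.32 and 0.292 in BC44. Follistatin-like 3 (Fstl3) was at 4.03 and 4.54 RPKM in HC11 against 0.14 and 0.141 in BC44. The log2 differences were 4.14 (SE 0.46, adjusted p = 0.000273), 3.68 (SE 0.13, adjusted p = 1.55e-06), -4.28 (SE 0.10, adjusted p = 2.93e-07) and -2.21 (SE 0.11, adjusted p = 5.53e-06). The latent TGF-beta binding proteins also split, with Ltbp1 at 21.4 and 20.8 RPKM in BC44 against 1.06 and 2.04 in HC11. Ltbp2 was at 29.5 and 37.1 RPKM in HC11 against 0.518 and 1.19 in BC44. Tgfb3 was higher in BC44, at 16.01 and 15.2 RPKM in BC44 against 3.69 and 2.001 in HC11. The receptor Tgfbr2, higher in HC11, was at 46.4 and 44.6 RPKM in HC11 against 18.6 and 18.8 in BC44. BMP pathway and Id genes gave 4 of 16 in each direction. Bmp7 was at 8.696 and 6.13 RPKM in BC44 against 0.415 and 0.139 in HC11. The antagonist Nog was at 2.92 and 3.52 RPKM in BC44 against 0.7 and 1.09 in HC11. The antagonist Chrdl1 was at 7.47 and 6.45 RPKM in HC11 against 0.202 and 0.178 in BC44. The antagonist Bmper was at 2.84 and 2.94 RPKM in HC11 against 0.415 and 0.423 in BC44. In the Wnt pathway beyond its ligands 4 of 33 were at least 2-fold higher in BC44 and 6 in HC11. The R-spondin receptor Lgr4 was at 69.5 and 69.2 RPKM in BC44 against 19.5 and 16.8 in HC11. Its relative Lgr6 was at 2.104 and 3.96 RPKM in BC44 against 0.538 and 0.495 in HC11. The secreted antagonist Sfrp1 was at 34.4 and 27.4 RPKM in HC11 against 9.76 and 6.25 in BC44. The Wnt receptors Fzd3, Fzd4 and Fzd5 differed by -1.60 (SE 0.11), -1.75 (SE 0.13) and -1.11 (SE 0.12). Sostdc1, an antagonist of both Wnt and BMP signals, was at 97.1 and 87.2 RPKM in BC44 against 2.798 and 0.518 in HC11, with 5.28 (SE 0.44, adjusted p = 6.75e-05).

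Receptor tyrosine kinases and their ligands were divided evenly, 7 of 29 at least 2-fold higher in each line. Fgfr2, the receptor through which fibroblast growth factors maintain mammary epithelium, was at 34.6 and 37.2 RPKM in BC44 against 1.79 and 1.27 in HC11. The platelet-derived ligand Pdgfb was at 26.02 and 20.9 RPKM in BC44 against 1.07 and 1.44 in HC11. Gas6, the ligand of Axl, was at 68.7 and 58.7 RPKM in BC44 against 3.57 and 3.28 in HC11. Its receptor Axl went the other way and was at 63.6 and 76.8 RPKM in HC11 against 26.2 and 24.1 in BC44. The log2 differences were 3.87 (SE 0.12, adjusted p = 1.07e-06), 3.44 (SE 0.17, adjusted p = 4.69e-06), 3.87 (SE 0.21, adjusted p = 8.81e-06) and -1.44 (SE 0.10, adjusted p = 3.02e-05). Hepatocyte growth factor (Hgf), which in tissue is made by stroma, was at 3.38 and 3.597 RPKM in HC11 against 0.025 and 0 in BC44. The angiogenic factor Vegfa was at 46.3 and 54.3 RPKM in HC11 against 12.95 and 11.8 in BC44. The lymphangiogenic factor Vegfc was at 2.15 and 7.27 RPKM in HC11 against 0 and 0.03 in BC44. Angpt1 was at 2.81 and 4.69 RPKM in BC44 against 0.127 and 0.148 in HC11, against a mean of 165 RPKM in C57MG. Its BC44 mean was 2.28% of its C57MG mean, and the part of C57MG-like signal in it was not tested further. Insulin-like growth factors are held in the medium by binding proteins. In the insulin-like growth factor system the most abundant gene, Igfbp5, was at 485 and 368 RPKM in HC11 against 254 and 192 in BC44 and did not pass, with -0.93 (SE 0.39, adjusted p = 0.0859). With the 4 BC44 and HC11 libraries alone its adjusted p was 0.00357. Igfbp2, a secreted binding protein, was at 128 and 124 RPKM in BC44 against 0.058 and 0.113 in HC11, with 6.87 (SE 0.22, adjusted p = 1.07e-06). Irs1, the docking protein of the insulin receptor, was at 4.39 and 5.69 RPKM in HC11 against 1.496 and 1.598 in BC44. Grb14, an inhibitor of that receptor, was at 15.3 and 16.05 RPKM in HC11 against 5.75 and 5.83 in BC44.

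Homeobox genes, regulators of position and tissue identity, were tilted to BC44: 9 of 51 tested were at least 2-fold higher there and 3 in HC11. Dlx3, a factor of epidermal differentiation, was at 27.6 and 31.6 RPKM in BC44 against 0.02 and 0.053 in HC11. Barx2 was at 87.4 and 67.6 RPKM in BC44 against 2.502 and 1.06 in HC11. Hopx, an unusual homeodomain protein that does not bind DNA, was at 18.5 and 18.6 RPKM in BC44 against 0.104 and 0.18 in HC11. In log2 units the differences came to 4.88 (SE 0.15, adjusted p = 8.78e-07), 4.86 (SE 0.30, adjusted p = 1.59e-05) and 4.10 (SE 0.17, adjusted p = 2.68e-06). Dlx5, Irx5, Hoxc9 and Hoxc13 were also higher in BC44, by 1.47 (SE 0.12), 1.10 (SE 0.12), 1.65 (SE 0.13) and 1.11 (SE 0.11). Prrx1, a mesenchymal homeobox gene, was at 2.101 and 2.11 RPKM in HC11 against 0 and 0.041 in BC44. Hoxa10 was at 1.47 and 1.15 RPKM in HC11 against 0 and 0.018 in BC44. Among 63 Fox, Sox, Klf, Tbx and Ets-family factors the balance was the opposite, 11 higher in HC11 and 4 in BC44. Sox11 was at 53.8 and 48.5 RPKM in BC44 against 4.52 and 3.71 in HC11. Its relative Sox4 was at 46.6 and 49.3 RPKM in HC11 against 7.103 and 7.47 in BC44. The ciliogenesis factor Foxj1 was at 11.6 and 4.18 RPKM in HC11 against 0.235 and 0.131 in BC44. Of the nuclear receptors 2 of 20 were at least 2-fold higher in each line, and the BC44 count was 1 without BC44 replicate 2. The vitamin D receptor (Vdr) was at 70.4 and 61.4 RPKM in BC44 against 22.8 and 18.7 in HC11. The glucocorticoid receptor (Nr3c1) was at 12.9 and 15.1 RPKM in BC44 against 6.07 and 6.24 in HC11. On the HC11 side, the immediate early receptor Nr4a1 was at 11.2 and 13.8 RPKM in HC11 against 3.29 and 2.94 in BC44. Nr2f2 (COUP-TFII) was at 21.1 and 27.04 RPKM in HC11 against 6.83 and 8.99 in BC44.

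Several detoxification enzymes were far higher in BC44. NRF2 is the transcription factor that answers oxidants and electrophiles through antioxidant response elements. Of 31 tested targets 7 were at least 2-fold higher in BC44 and 3 in HC11, the latter being 1 without HC11 replicate 2. Nqo1, a quinone reductase often used as its reporter, was at 47.8 and 54.5 RPKM in BC44 against 1.94 and 1.93 in HC11. The glutamate-cysteine ligase Gclc was at 61.3 and 67.6 RPKM in BC44 against 17.3 and 18.3 in HC11. The epoxide hydrolase Ephx1 was at 46.1 and 45.2 RPKM in BC44 against 2.605 and 2.16 in HC11. The gastrointestinal glutathione peroxidase Gpx2 was at 342 and 344 RPKM in BC44 against 69.99 and 46.5 in HC11. They differed in log2 terms by 4.15 (SE 0.15, adjusted p = 1.56e-06), 1.80 (SE 0.09, adjusted p = 4.25e-06), 3.79 (SE 0.09, adjusted p = 4.22e-07) and 2.57 (SE 0.51, adjusted p = 0.00474). The Gpx2 call was lost without HC11 replicate 2, where the difference was 2.28. With a pseudocount of 0.1 it was also lost (adjusted p = 0.155), in a fit that included C57MG, where Gpx2 was at 2.645 and 0 RPKM. Glutathione transferase Gsta3 was at 61.5 and 87.7 RPKM in BC44 against 0.039 and 0.05 in HC11, with 6.16 (SE 0.27, adjusted p = 3.17e-06). Its promoter is shown because it held the only antioxidant response element match among the 7 promoters of 6 BC44-high targets. It lies at chr1:21240335-21240634, plus strand (RefSeq, GRCm38.p6), and the match of TGACNNNGC or its reverse complement, in capitals, starts at -121.
Gsta3: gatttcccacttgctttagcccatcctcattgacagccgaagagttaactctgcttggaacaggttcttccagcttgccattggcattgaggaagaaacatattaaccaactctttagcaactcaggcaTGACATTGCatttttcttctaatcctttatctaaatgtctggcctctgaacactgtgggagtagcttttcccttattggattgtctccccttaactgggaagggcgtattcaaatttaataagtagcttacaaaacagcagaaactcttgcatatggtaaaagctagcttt
The same letters stood in 14.6% of all promoters and in 13.7% of those of genes at least 2-fold higher in BC44. TGACTCA, one form of the AP-1 site, matches both motifs when GC follows it. Glutathione transferases as a family were mixed, 4 of 16 at least 2-fold higher in BC44 and 3 in HC11. The most abundant member, Gstp1, was at 138 and 125 RPKM in BC44 against 159 and 128 in HC11 and did not pass, with -0.12 (SE 0.11, adjusted p = 0.415). Gsto1 was at 145 and 131 RPKM in BC44 against 60.3 and 69.1 in HC11. Gstt1 was at 5.14 and 5.53 RPKM in HC11 against 1.48 and 1.24 in BC44. Gstm1 was at 3.97 and 8.84 RPKM in BC44 against 3.05 and 1.502 in HC11, and in C57MG at a mean of 439.7 RPKM. Its difference of 1.14 became -0.18 when the C57MG-like signal was subtracted. Sequences of the encoded proteins were not used here.

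Aldehyde, aldo-keto and cytochrome P450 enzymes gave 10 of 42 at least 2-fold higher in BC44 and 7 in HC11. Aldh3a1, an aldehyde dehydrogenase of cornea and skin, was at 26.4 and 41.8 RPKM in BC44 against 2.58 and 3.67 in HC11. Cyp26b1, which clears retinoic acid, was at 22.03 and 22.6 RPKM in BC44 against 2.08 and 3.699 in HC11. The aldo-keto reductase Akr1b8 was at 62.5 and 93.6 RPKM in HC11 against 12.2 and 13.5 in BC44. Akr1c18, which inactivates progesterone, was at 10.4 and 23.3 RPKM in HC11 against 0.057 and 0 in BC44. The log2 differences were 3.07 (SE 0.29, adjusted p = 0.000123), 2.62 (SE 0.19, adjusted p = 2.9e-05), -2.49 (SE 0.17, adjusted p = 2.51e-05) and -4.02 (SE 0.30, adjusted p = 3.75e-05). Iron handling differed as well. Of 23 genes of metallothioneins, zinc and iron 7 were at least 2-fold higher in HC11 and 2 in BC44. Ferritin heavy chain (Fth1), the iron store, was at 6527 and 11871 RPKM in HC11 against 921 and 1181 in BC44. The iron importer Slc11a2 was at 22.5 and 26.4 RPKM in HC11 against 8.299 and 8.14 in BC44. The importer Slc39a14 was at 13.8 and 15.04 RPKM in HC11 against 4.82 and 4.53 in BC44. Ferroportin (Slc40a1), the iron exporter, was at 5.57 and 4.103 RPKM in BC44 against 0.382 and 0.186 in HC11. The store and the importers were thus higher in HC11 and the exporter in BC44, with log2 differences of -3.08 (SE 0.26, adjusted p = 6.66e-05), -1.46 (SE 0.10), -1.44 (SE 0.10) and 2.18 (SE 0.15, adjusted p = 2.51e-05). Fth1 has many processed copies in the genome, so reads could be split among them, and it was higher in HC11 replicate 2 than in replicate 1. Metallothionein 2 (Mt2) was at 150.1 and 162 RPKM in BC44 against 33.4 and 58.1 in HC11. Its neighbour Mt1 was at 360.2 and 390.5 RPKM in BC44 against 285 and 345 in HC11 and did not pass.

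Core metabolism was close to the background at 2-fold. Cholesterol synthesis and uptake gave 1 of 27 at least 2-fold higher in BC44 and 3 in HC11, with 9 passing in all (33.3%). Soat1, which esterifies cholesterol for storage, was at 10.7 and 15.1 RPKM in HC11 against 0.186 and 0.18 in BC44. The sterol exporter Abca1 was at 7.85 and 4.297 RPKM in BC44 against 1.55 and 1.02 in HC11. Fatty acid synthesis and lipid storage gave 1 of 34 and 3 of 34, the latter being 6 without HC11 replicate 2, and glycolysis and glucose uptake 1 of 29 and 4 of 29. In both directions together these were 14.8%, 11.8% and 17.2% of the 3 lists, against 13.1% of all genes. Among hypoxia-inducible genes, Egln3 was at 14.5 and 11.9 RPKM in HC11 against 0.051 and 0.409 in BC44. Ndrg1 was at 13.4 and 26.1 RPKM in HC11 against 6.94 and 6.31 in BC44. Carbonic anhydrase 12 (Car12), another hypoxia-inducible gene, went the other way at 42.3 and 47.8 RPKM in BC44 against 10.2 and 8.21 in HC11. Among 51 lysosomal hydrolases, cathepsins and vacuolar ATPase subunits 25 passed as higher in HC11 and 12 as higher in BC44, 4 and 3 of them at least 2-fold. Cathepsin L (Ctsl) was at 581 and 747 RPKM in HC11 against 272 and 283 in BC44. Mitf, a factor that drives lysosomal genes and pigment cells, was at 8.03 and 9.63 RPKM in BC44 against 2.76 and 1.98 in HC11. Solute carriers gave 10 of 169 at least 2-fold higher in BC44 and 23 in HC11.

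Regulators of entry into the cell cycle were divided. Of 19 G1 cyclins and CDK inhibitors 12 passed (63.2%), and 2 were at least 2-fold higher in each line, and the BC44 count was 1 without either HC11 library. Cdkn1a (p21) was at 58.9 and 49.3 RPKM in BC44 against 16.95 and 28.04 in HC11. Cdkn2b (p15) was at 13.7 and 12.3 RPKM in BC44 against 6.996 and 4.46 in HC11. On the HC11 side, Cdkn2c (p18) was at 68.6 and 62.6 RPKM in HC11 against 16.2 and 18.2 in BC44. Cyclin D2 (Ccnd2) was at 11.3 and 12.4 RPKM in HC11 against 1.84 and 1.48 in BC44. They differed in log2 terms by 1.27 (SE 0.21, adjusted p = 0.00215), 1.08 (SE 0.18, adjusted p = 0.00203), -1.87 (SE 0.09, adjusted p = 4.69e-06) and -2.27 (SE 0.11, adjusted p = 5.46e-06). Of 29 tested genes in a list for p53 and its targets, drawn by symbol, 6 were at least 2-fold higher in BC44 and 2 in HC11. Besides Cdkn1a, Cdkn2b and Perp, the former included Trp73, a p53 relative, which was listed at 0 in both HC11 libraries and was at 3.69 and 4.75 RPKM in BC44. The latter were Fas and the kinase Plk3, at 34.1 and 54.7 RPKM in HC11 against 6.46 and 8.02 in BC44. Whether p53 controls the listed genes in these lines, Cdkn2b among them, was not tested.

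Surface antigens used to sort mammary stem and progenitor cells were divided, 8 of 27 at least 2-fold higher in each line. The Ly6 genes were higher in BC44: besides Ly6a and Ly6d, Ly6e was at 187 and 155 RPKM in BC44 against 59.8 and 51.9 in HC11. Ly6c1 was at 7.696 and 7.51 RPKM in BC44 against 0.25 and 0.081 in HC11. Ly6a, Ly6d and Ly6c1 differed by 4.90 (SE 0.46, adjusted p = 0.000114), 4.83 (SE 0.56, adjusted p = 0.000323) and 2.89 (SE 0.10, adjusted p = 1.33e-06). The Ly6 genes are similar in sequence, so reads could be split among them, and Ly6a and Ly6c1 stood at means of 418 and 288 RPKM in C57MG. The adhesion molecule Alcam was at 13.1 and 19.4 RPKM in HC11 against 0.73 and 0.37 in BC44. Cd44 was at 59.7 and 85.7 RPKM in HC11 against 30.1 and 31.6 in BC44. Cd44 is the hyaluronan receptor. The 5'-nucleotidase Nt5e was at 115 and 112 RPKM in HC11 against 38.5 and 32.3 in BC44. The S100 proteins gave 2 of 12 in BC44 and 3 in HC11, with S100a14 at 235 and 248 RPKM in BC44 against 32.98 and 15.97 in HC11. Channels leaned to BC44, 7 of 34 against 2, led by the T-type calcium channel Cacna1g, at 13.1 and 9.702 RPKM in BC44 against 0.143 and 0.234 in HC11. The calcium-activated potassium channel Kcnn4 was at 21.7 and 24.6 RPKM in HC11 against 3.06 and 3.04 in BC44. Receptors of small ligands gave 10 of 40 in each direction. The protease-activated receptor F2rl1 was at 18.998 and 15.6 RPKM in BC44 against 0.841 and 0.71 in HC11. The nicotinic acid receptor Hcar2 was at 19.6 and 45.95 RPKM in HC11 against 1.58 and 1.94 in BC44. The receptor activity-modifying protein Ramp3 was at 36.7 and 54.8 RPKM in HC11 against 0.991 and 1.54 in BC44.

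The differences were also uneven along the chromosomes. The median difference was taken over every run of 25 neighbouring tested genes, ordered as in GENCODE M21, and 9720 such runs had a median of 0.02, with 5% of them at or under -0.42 and 5% at or above 0.40. Runs with a median of at least 0.5 in size, joined where they met, formed 18 stretches. These were picked by their values, so the values inside them are a description. The stretches higher in BC44 held 4.63% of the tested genes and 13% of the genes at least 2-fold higher in BC44, and those higher in HC11 held 5.71% of the tested genes and 17.9% of the genes at least 2-fold higher in HC11.

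The strongest stretch lay on distal chromosome 11, from Amz2 to Cep131. Of its 97 genes 52 were at least 2-fold higher in HC11 and 2 in BC44, and the median log2 difference was -1.08, with quartiles of -1.47 and -0.43. The run of 25 genes at its core had a median of -1.51, and all 25 passed as higher in HC11, 22 of them at least 2-fold. The median was -1.52 between the libraries numbered 1 and -1.35 between those numbered 2. The same 25 genes had a median 1.16 above C57MG in HC11 and -0.37 against C57MG in BC44, so it was HC11 that stood away from the other lines. The genes there have unrelated functions. Grb2, the adaptor that links growth factor receptors to Ras, was at 119.8 and 119.8 RPKM in HC11 against 39.3 and 39.3 in BC44. The nucleoporin Nup85 was at 139 and 135 RPKM in HC11 against 46.05 and 48.3 in BC44. The ubiquitin-like modifier Sumo2 was at 254 and 255 RPKM in HC11 against 109 and 110.3 in BC44. The galactokinase Galk1 was at 98.4 and 72.9 RPKM in HC11 against 2.09 and 2.12 in BC44. Grb2 and Nup85 were close to equal between replicates, and their log2 differences were -1.58 (SE 0.07, adjusted p = 3.09e-06) and -1.52 (SE 0.07, adjusted p = 4.25e-06). Some exceptions among the basic machinery lie in this stretch: the mitochondrial ribosomal proteins Mrpl38 and Mrps7, the ATP synthase subunit Atp5h, thymidine kinase Tk1 and survivin (Birc5), with -2.03 (SE 0.09), -1.47 (SE 0.10), -1.31 (SE 0.10), -1.43 (SE 0.11) and -1.40 (SE 0.07). Socs3 and Itgb4, described with their pathways, also lie in it, with differences of -3.96 and -1.34. So does Timp2, a relative of Timp1, with -1.18. These values stand beside a stretch median of -1.08.

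Other stretches were longer and shallower. On chromosome 9 the run from Alkbh8 to Ncapd3 had 97 genes with a median of 0.55 and that from Chek1 to Uchl4 had 162 genes with a median of 0.59, of which 76.3% and 72.8% passed as higher in BC44, against 25.5% of all genes. Yap1, the effector of the Hippo pathway, was at 39.3 and 39.8 RPKM in BC44 against 21.8 and 21.04 in HC11, with 0.86 (SE 0.08, adjusted p = 9.79e-05). Here it was BC44 that stood away from C57MG, by medians of 0.59 and 0.61, against 0.17 and 0.03 for HC11. Chromosome 8 began with 153 genes from Zfp358 to Cep44 with a median of -0.57, of which 77.8% passed as higher in HC11, and HC11 stood 0.78 above C57MG there. Col4a1, Col4a2, Plat, Dusp4, Sfrp1 and Vegfc lie in it. Psme1 and Psme2 lie in a stretch of chromosome 14 with a median of -0.48. The number of copies of these regions was not measured in the files used here.

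The stretch on chromosome 5 was of another kind. From Ankrd17 to Cnot6l 28 genes had a median of -0.63, with quartiles of -3.23 and -0.04, and 11 were at least 2-fold higher in HC11. They include the chemokines Cxcl1, Cxcl2, Cxcl3, Cxcl5 and Ppbp and the EGF ligands Areg, Ereg and Btc, which sit next to each other. A few genes further, Rchy1 was at 14.2 and 14.1 RPKM in BC44 against 15.1 and 14.6 in HC11. G3bp2 was at 44.7 and 50.3 RPKM in BC44 against 59.4 and 63.7 in HC11. Uso1 was at 48.03 and 51.1 RPKM in BC44 against 46.1 and 54.1 in HC11. They differed in log2 terms by -0.07, -0.37 and -0.01, beside -8.06 for Cxcl1. The stretch thus held large and near-zero differences, whereas those of the chromosome 11 core lay between -1.93 and -1.34 at the quartiles.

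**Figure D5:**
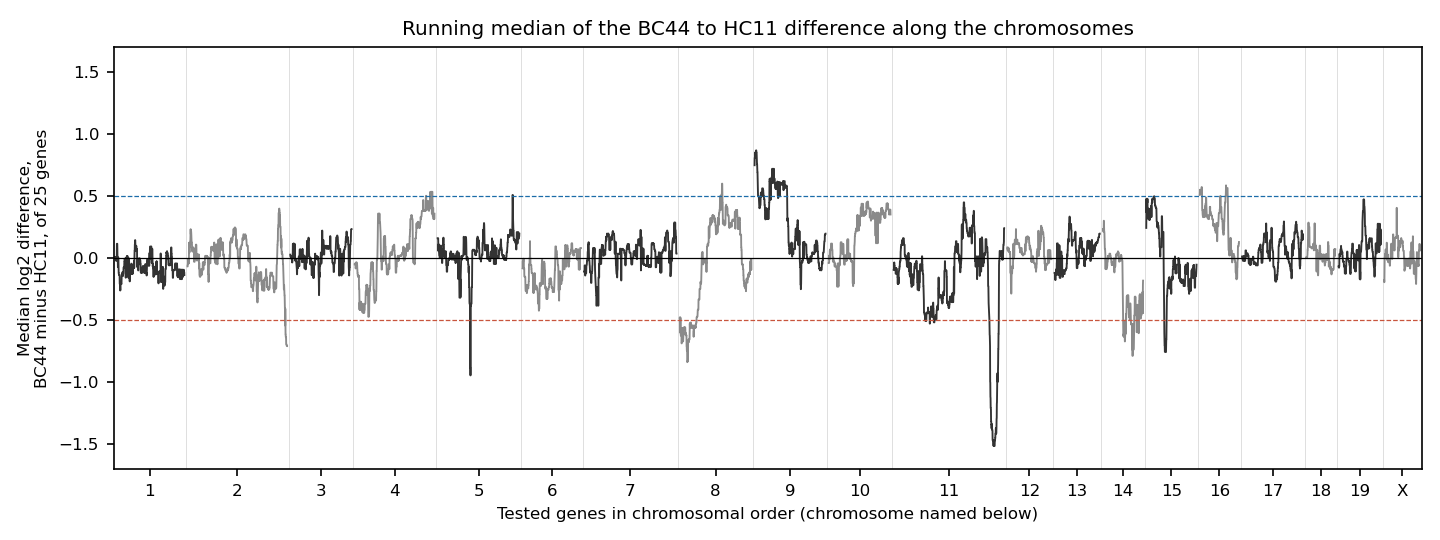
Running median of the log2 difference between BC44 and HC11 over 25 neighbouring tested genes, in chromosomal order from chromosome 1 to X, with dashed lines at 0.5 and -0.5. Distal chromosome 11 dips to about -1.5, the start of chromosome 8 lies below -0.5, the first part of chromosome 9 lies above 0.5, and chromosome 5 has a narrow dip at the chemokine and EGF ligand genes.

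Xist, the RNA that coats the inactive X chromosome of female cells, was at 55.4 and 58.7 RPKM in HC11 against 0.436 and 1.47 in BC44 and at a mean of 91.3 RPKM in C57MG, with a log2 difference of -4.95 (SE 0.22, adjusted p = 3.23e-06). The higher BC44 value was in replicate 2, which also had more C57MG-like signal. The 307 tested genes of the X chromosome had a median log2 difference of 0.05, and 11 were at least 2-fold higher in BC44 and 22 in HC11.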

How the data were processed

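The deposited table gives RPKM values made by the authors for 6 libraries and 11417 genes with Ensembl identifiers. The submitters' processing notes name STAR and the mm9 build, and the read counter, the annotation and any filter are not given in the sources used here. The 6 value columns carry the line and replicate number of the labels, and 0 other columns of sample values are in the table. Because the values are no counts, no count model was used. Genes with at least 1 RPKM in at least 2 of the 4 BC44 and HC11 libraries (10200) were taken as log2(RPKM + 1) and fitted with limma 3.58.1 in R 4.3.3 (trended variance, all 6 libraries, no covariate), and p-values were adjusted by the Benjamini-Hochberg method over all tested genes. Depth was estimated from the steps of low values, and an interval from depth covers counting error only. Members of 77 gene lists were taken by symbol or symbol pattern, and lists and members were chosen with earlier results of these data known.

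Genes are named where they were among the 15 largest non-overlapping passing differences in each direction, or the most abundant member of a family list. Others were among the 3 largest differences in a list that passed at 2-fold without overlap. The 257 further list members, like the runs of 25 genes, were picked with the values in view. Separation of named genes between the lines is therefore a description. Promoters came from RefSeq, build GRCm38.p6, and gene order from GENCODE M21, with no coordinate taken across builds. Other pseudocounts, filters, scalings, variance models, samples and a replicate block were tried. A few items are not reported here. Figures were drawn with matplotlib 3.10.9 in Python 3.11.15. The replicate numbers are in the labels, and nothing says that equal numbers mark a shared culture or day.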

Additional observations from a re-analysis of the deposited data

How the results depend on the processing

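All counts of genes passing stayed within 1.5 times of 5019 under the 16 settings tried. They were 4753 with a pseudocount of 0.1, 5387 with no filter, 3654 where the mean had to reach 5 RPKM, 5240 with the replicate block, and 3723 to 4703 without one of the 4 BC44 and HC11 libraries. The genes at least 2-fold apart numbered 1291 to 1448 without one of these libraries and 807 where the mean had to reach 5 RPKM, 355 higher in BC44 and 452 in HC11, where fewer genes were tested. Libraries of BC44 and HC11 with the same number deviated together with a correlation of 0.362 across genes, over 2 pairs, which share only a number. Of 447 named genes that passed, 430 did so under every setting that tested them. Most named genes were chosen for large passing differences, so this share is not that of all calls. Of all 5019 calls, 4421 were also made with the 4 BC44 and HC11 libraries alone and 4738 with a pseudocount of 0.1. The direction turned in 4 named genes. With the C57MG-like signal subtracted Gstm1 was at -0.18. Leaving out 1 library at a time moved Gstp1 from -0.27 (without HC11 replicate 2) to 0.03 (without HC11 replicate 1), Egfr from -0.34 (without HC11 replicate 1) to 0.13 (without HC11 replicate 2), and Uso1 from -0.12 to 0.03 without BC44 replicate 1 and 0.10 without HC11 replicate 2. The cause was not tested. Of 62 list counts of at least 4 genes past 2-fold in one line, 59 stayed within 1.5 times without each of the 4 libraries, and the exceptions, keratins, lineage factors and guidance genes, are given beside their counts. With 2 libraries a line, precision rests on a spread pooled over genes and lines.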

Other observations

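Among the 15 largest differences in each direction, several genes belonged to no group described above. In BC44 these included the surface peptidase Mme (CD10, a basal marker of the breast), at 91.8 and 56.7 RPKM in BC44 against 0.381 and 0.296 in HC11, with 5.77 (SE 0.24, adjusted p = 2.56e-06). The arginine-degrading enzyme arginase 1 (Arg1) was at 75.4 and 66.7 RPKM in BC44 against 1.31 and 0.615 in HC11. Fxyd2, a regulator of the sodium pump, was at 44.9 and 35.4 RPKM in BC44 against 0 and 0 in HC11, and it lies in the chromosome 9 stretch from Chek1 to Uchl4. The LIM-domain protein Lmo1 was at 65.2 and 61.3 RPKM in BC44 against 1.26 and 1.303 in HC11. Nrep, a small protein of regenerating and wounded tissue, was at 109.7 and 71.6 RPKM in BC44 against 0.15 and 0.083 in HC11. In HC11, Ankrd1, a widely used target of YAP, was at 145 and 202 RPKM in HC11 against 0.194 and 0.097 in BC44, with -7.23 (SE 0.16, adjusted p = 2.93e-07), although Yap1 itself was higher in BC44. Of 27 tested Hippo pathway genes and YAP targets 1 was at least 2-fold higher in BC44, Crim1, and 3 in HC11.

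Genes of membrane traffic, the cytoskeleton and glycosylation were also divided. Of 43 Rab GTPases 3 were at least 2-fold higher in each line, led by Rab38, which serves lysosome-related organelles, at 45.9 and 47.1 RPKM in BC44 against 0.586 and 0.569 in HC11. Its close relative Rab32 went the other way, at 52.1 and 57.5 RPKM in HC11 against 16.2 and 17.8 in BC44, with -1.63 (SE 0.09) against 4.91 (SE 0.15) for Rab38. The tubulin Tubb2b was at 64.9 and 69.6 RPKM in HC11 against 4.63 and 4.59 in BC44. Of 31 mucins and O-glycan or sialic acid enzymes 6 were at least 2-fold higher in each line. Galnt18 was at 47.7 and 44.3 RPKM in BC44 against 1.69 and 1.003 in HC11, while its relative Galnt12 was at 4.71 and 3.87 RPKM in HC11 against 0.03 and 0.05 in BC44. Among 36 cytosolic chaperones 3 small heat shock genes were at least 2-fold higher in BC44 and 0 genes in HC11: Cryab, Hspb2 and Hspb8. Cryab was at 244 and 211 RPKM in BC44 against 42.3 and 63.96 in HC11. Cryab and Hspb2 are neighbours in a stretch of chromosome 9 that was higher in BC44 as a whole.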
